A study of Arabidopsis thaliana with 18 samples.

Results

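The receptor mutant bri1-116 of Arabidopsis thaliana was compared with wild-type Col-0 in the tip section of the primary root. The comparison takes the 2 libraries of untreated bri1-116 and the 2 libraries of mock-treated Col-0, which are 4 of the 18 libraries of the series, and covers every locus that passed a low-count filter, 20644 of the 33602 listed. All plants were in the Col-0 background, grew upright on MS medium in constant light and were 7 days old. The bri1-116 seedlings were untreated. The Col-0 seedlings received a mock solution for 4 h, so the mutation and the mock handling cannot be told apart within this pair. 3 other groups serve as side values: the untreated double mutant bri1-116;bzr1-1D, read at 101 bp like the main pair, and untreated dwf4 and untreated wild type (WT), both read at 36 bp. Roots were cut across and the section with the tip was taken, so each library pools all cell types from the root cap upward.

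Brassinosteroids are plant steroid hormones that promote cell elongation, vascular differentiation and balanced growth of the root meristem. BRI1 is their main receptor, a leucine-rich repeat receptor kinase at the plasma membrane. The hormone brings BRI1 together with co-receptors of the SERK family such as BAK1, and a relay through BSK kinases and the phosphatase BSU1 switches off the kinase BIN2. The transcription factors BZR1 and BES1 then lose their phosphates, enter the nucleus, activate growth genes and repress the genes for brassinosteroid synthesis. The bri1-116 allele is a nonsense allele and gives extreme dwarfs, bzr1-1D is a dominant allele that stabilises BZR1, and dwf4 plants lack an enzyme of hormone synthesis.

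Counts assigned to genes were 25775491 and 28245709 in bri1-116 and 23684709 and 29482429 in mock-treated Col-0. Levels below are CPM, counts scaled to 1000000 after edgeR's TMM adjustment, so they compare one gene between libraries and not one gene with another. The limit that 0 counts allow, set at 3 counts, was 0.102 to 0.127 CPM in these 4 libraries and covers counting error only. Root identity was checked with 8 markers (PLT1, PLT2, SCR, SHR, WER, GL2, SMB, CASP1), all of which had counts. Their levels summed to 349.8 and 349.7 CPM in bri1-116 and 444 and 472 CPM in mock-treated Col-0. The fall of CASP1, given below, was larger than that of the sum. In the test described below, 3 of the 8 were higher and 2 lower in bri1-116, beside 16.7% and 19.4% of all loci. The 10 shoot and flower markers summed to 1.11 and 1.34 CPM in bri1-116 and 1.05 and 1.16 CPM in mock-treated Col-0, with AG, CLV3, FMA, MUTE and WUS at 0 in all 4 libraries.

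Loci were called at an adjusted p under 0.05 in the quasi-likelihood test of edgeR, adjusted by the Benjamini-Hochberg method, and every adjusted p below is from that test. In bri1-116, 7456 of the 20644 loci were called (36.1%), of which 3443 were higher (16.7%) and 4013 were lower (19.4%). Changes of more than 2-fold were fewer, with 643 loci higher (3.11%) and 576 lower (2.79%). Both bri1-116 libraries lay outside the range of the 2 mock libraries at 69.7% of loci, and the median log2 fold change over all loci was 0.01. Against untreated WT, 8791 of 20393 loci were called (43.1%), 4186 higher (20.5%) and 4605 lower (22.6%). No label ties the libraries to separate cultures or plates, so the p-values measure only the spread between these samples, which may be technical. Fewer cells of a type and less RNA per cell cannot be told apart in such whole-tissue samples.

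**Figure D1:**
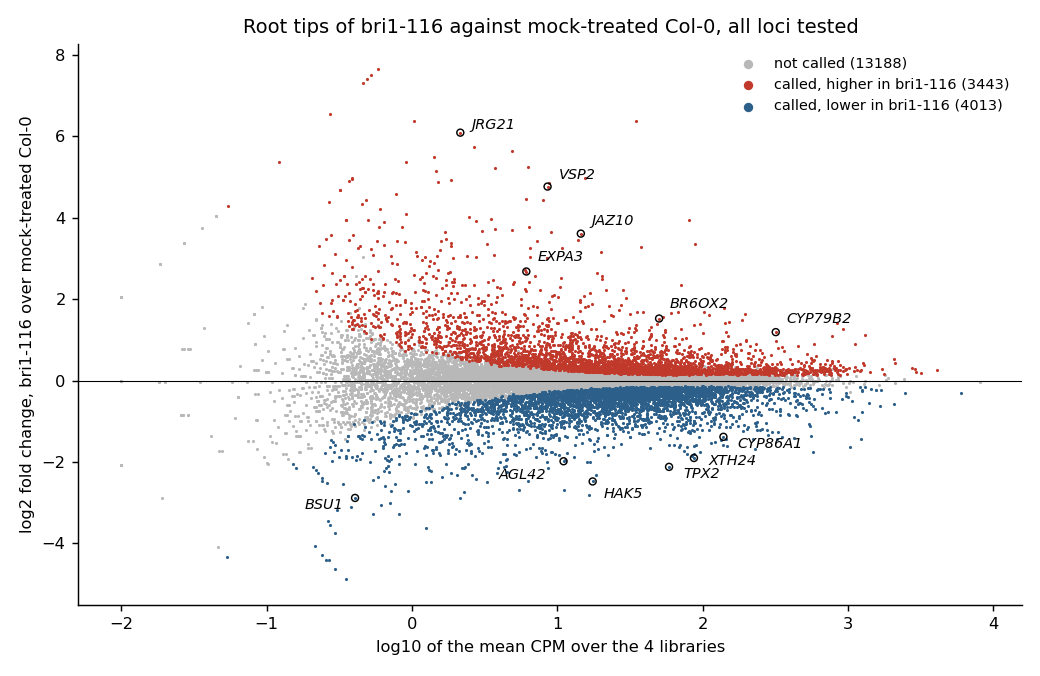
Each point is a locus, with the log10 of its mean CPM over the 4 libraries on the horizontal axis and the log2 fold change of bri1-116 over mock-treated Col-0 on the vertical axis. The 3443 red loci were called higher and the 4013 blue loci lower, and most of the named loci with large rises (JRG21, VSP2, JAZ10) lie at low to moderate levels.

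The receptor gene itself was checked first. BRI1 (AT4G39400) stood at 142 and 135 CPM in bri1-116, against 114 and 129 CPM in mock-treated Col-0. Both mutant libraries were above both Col-0 libraries, and the difference did not pass the test (log2 fold change 0.19, SE 0.0769, adjusted p = 0.0692). It passed with the 4 libraries fitted alone (log2 fold change 0.18, adjusted p = 0.0423) and with no low-count filter (0.18, adjusted p = 0.0201). It passed under no other alternative that kept all 4 libraries. Without the second mock library the log2 fold change was 0.305. A nonsense allele need not change the amount of transcript, so the level of BRI1 does not check the genotype.

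Of 10 genes for brassinosteroid synthesis, all tested, 4 rose in bri1-116 and 0 fell, against 16.7% and 19.4% of all loci. BR6OX2 (AT3G30180), the oxidase of the last steps that form castasterone and brassinolide, had 75.2 and 73.7 CPM in bri1-116 and 25.03 and 26.7 CPM in mock-treated Col-0. The groups were far apart, a 2.87-fold rise (log2 fold change 1.52, SE 0.0856, adjusted p = 2.36e-09). DWF4 (AT3G50660), the C-22 hydroxylase, was at 54.9 and 58.1 CPM in bri1-116 and 46.0 and 43.5 CPM in mock-treated Col-0 (log2 fold change 0.34, SE 0.0719, adjusted p = 0.00145). CPD (AT5G05690), a cytochrome P450 of the same pathway, was at 57.7 and 54.5 CPM in bri1-116 and 46.5 and 49.2 CPM in mock-treated Col-0 (log2 fold change 0.23, SE 0.0664, adjusted p = 0.0134). DWF1 (AT3G19820), a sterol reductase early in the pathway, rose least, with 809.6 and 808 CPM in bri1-116 and 718 and 741 CPM in mock-treated Col-0 (log2 fold change 0.15, adjusted p = 0.0307). The rises of DWF4, CPD and DWF1 were thus small beside that of BR6OX2. The groups did not overlap for any of the 4, but the same held at 69.7% of all loci. That share applies to each such statement below. The other 6 genes (DET2, BR6OX1, ROT3, CYP90D1, DWF5, STE1) had log2 fold changes between -0.15 and 0.21 and did not pass. Without the first mock library only BR6OX2 and DWF4 still passed (the count fell to 2). CPD also lost its call without the first mutant library, and DWF1 without either mutant library. Against untreated WT, read at 36 bp, 3 rose and 2 fell. Neither DWF4 (log2 fold change 0.14, adjusted p = 0.126) nor DWF1 (0.11, adjusted p = 0.128) passed there, so the rises were not all of the same genes. CYP90D1 was called lower there (log2 fold change -0.79, adjusted p = 2.93e-05).

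The 250 bases before the annotated gene start are given for BR6OX2 and DWF4, the synthesis genes with the smallest adjusted p, because BZR1 and BES1 are known to act through short elements in promoters. Sequences are from the TAIR10.1 RefSeq genome, 5′ to 3′ on the gene's own strand. They were searched for the BZR1 elements CGTGTG and CGTGCG, the G-box CACGTG and the E-box CANNTG, on both strands. The G-box is one form of the E-box and can overlap CGTGTG. Capitals mark any match.
BR6OX2 promoter, chr3:11810476-11810725, plus strand: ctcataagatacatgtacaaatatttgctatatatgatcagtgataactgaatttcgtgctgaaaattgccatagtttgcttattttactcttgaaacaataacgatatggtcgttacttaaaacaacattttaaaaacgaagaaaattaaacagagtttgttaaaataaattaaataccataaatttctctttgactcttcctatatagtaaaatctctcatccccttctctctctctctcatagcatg
DWF4 promoter, chr3:18817406-18817655, minus strand: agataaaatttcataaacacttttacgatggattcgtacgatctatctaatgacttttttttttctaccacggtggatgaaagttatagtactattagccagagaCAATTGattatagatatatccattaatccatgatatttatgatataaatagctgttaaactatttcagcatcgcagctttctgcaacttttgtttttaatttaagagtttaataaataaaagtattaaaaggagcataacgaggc
The BR6OX2 stretch held no match, and that of DWF4 held 1 E-box, CAATTG, 140 to 145 bases before the start. Over the 20306 tested loci with a promoter of that length, 6.98% held CGTGTG or CGTGCG, 7.21% held the G-box and 56.1% held the E-box. CGTGTG or CGTGCG was found in 11% of the promoters of loci that rose more than 2-fold (70 of 636) and in 4.95% of those of loci that fell more than 2-fold (28 of 566). The G-box divided in a similar way, with 10.2% and 5.83%. Promoters where it overlaps CGTGTG were not set apart, so these splits cannot be told apart. Over all called loci, CGTGTG or CGTGCG was in 8.37% of the promoters of rises and 6.73% of those of falls. A match in letters is a description and not a binding site.

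Genes that inactivate the hormone moved the other way. Of 6 listed, 5 were tested, 4 fell and 0 rose, with a median log2 fold change of -0.68, while UGT73C6 had no counts in any of the 4 libraries. BAS1 (AT2G26710), a C-26 hydroxylase, was at 9.17 and 10.3 CPM in bri1-116 and 18.6 and 18.7 CPM in mock-treated Col-0 (log2 fold change -0.93, SE 0.112, adjusted p = 6.24e-06). SOB7 (AT1G17060), a related P450, was at 30.0 and 28.3 CPM in bri1-116 and 46.2 and 47.3 CPM in mock-treated Col-0 (log2 fold change -0.68, SE 0.0748, adjusted p = 2.39e-06). The groups did not overlap for either gene, and the fitted ratios of mutant to Col-0 were 0.523 for BAS1 and 0.623 for SOB7. BEN1, a reductase-like protein, fell by less (log2 fold change -0.36, adjusted p = 0.000349). The acyltransferase gene BIA1 was close to the threshold (log2 fold change -0.32, adjusted p = 0.0476), and its call was lost without the first mutant library or either mock library. Against untreated WT only BAS1 and SOB7 passed, both lower.

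**Figure D2:**
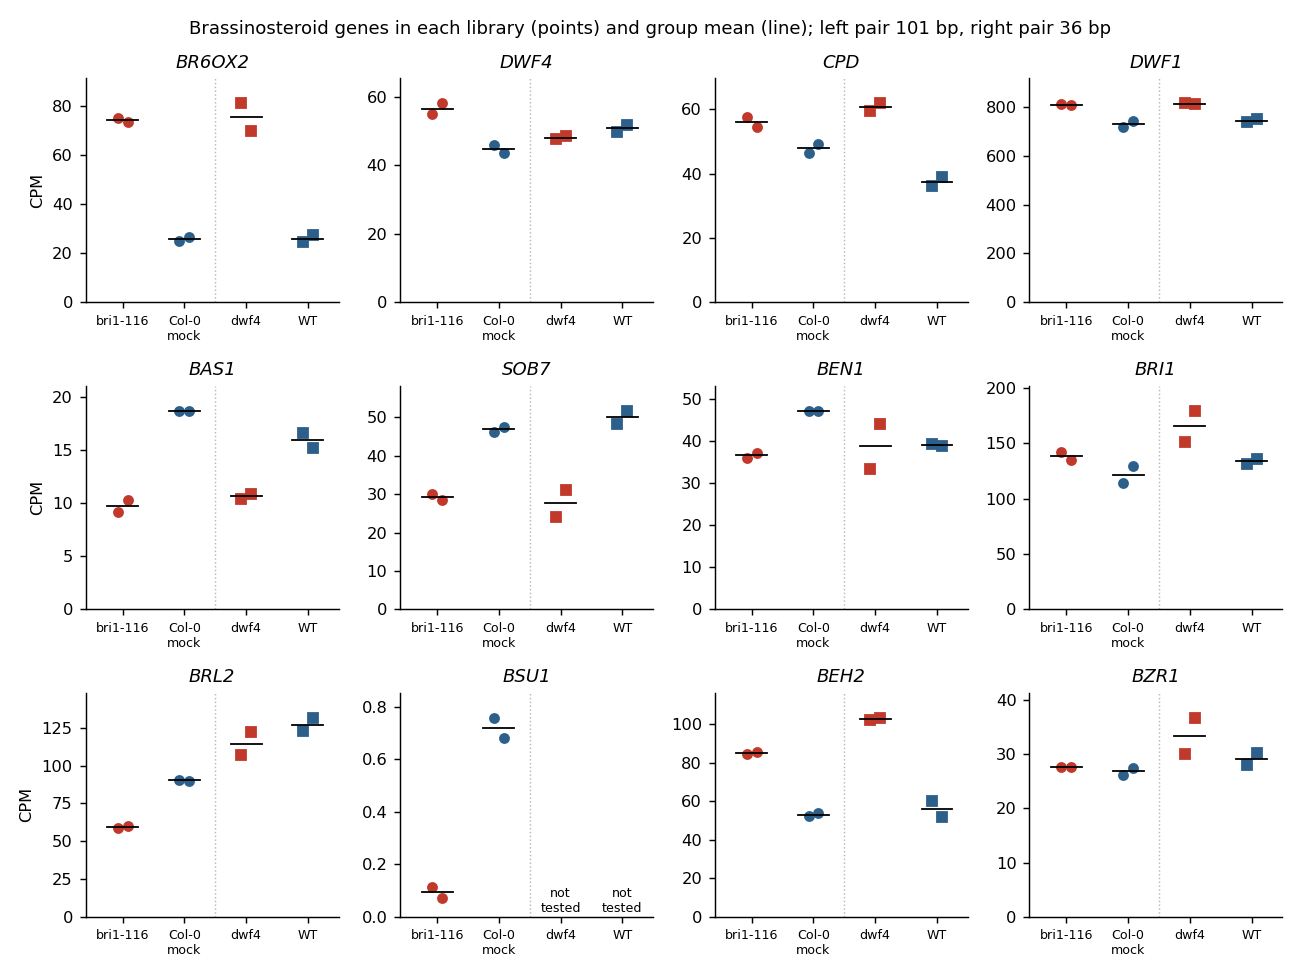
CPM of 12 brassinosteroid genes in each library (points) with the group mean (line), from left bri1-116 and mock-treated Col-0 at 101 bp, then dwf4 and WT at 36 bp. BR6OX2 is high and BAS1 and SOB7 are low in both mutants, while BRL2 differs clearly only between the left pair and BSU1 was not tested at 36 bp.

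Among 15 genes of hormone perception, 14 were tested, 4 rose and 4 fell, against 16.7% and 19.4% of all loci. BRL2 (AT2G01950), a BRI1-like kinase of the vascular tissue, fell to 59.0 and 59.9 CPM in bri1-116, against 90.6 and 89.9 CPM in mock-treated Col-0 (log2 fold change -0.60, SE 0.0541, adjusted p = 2.82e-07). BSU1 (AT1G03445), the phosphatase of the relay, was scarce in both groups, at 0.115 and 0.0707 CPM in bri1-116 and 0.759 and 0.680 CPM in mock-treated Col-0 (log2 fold change -2.88, SE 0.524, adjusted p = 0.000303). Both libraries of bri1-116 were below both of Col-0 for either gene. BRL3, another BRI1-like receptor (log2 fold change -0.30), and the kinase BSK1 (-0.21) also fell, by less. Rises were small: 0.44 for BRS1, a secreted carboxypeptidase, 0.25 for BSK3, 0.25 for SERK2 and 0.21 for SERK1. The rises numbered 2 without the first mutant or the first mock library, and the falls 2 without the second mock library. SERK2 lost its call without any one of the 4 libraries, SERK1 without the first library of either group, and BRL3 and BSK1 without the second mock library. BAK1 did not pass.

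Downstream, the kinase BIN2 and the factors BZR1 and BES1 did not pass (log2 fold changes -0.13, 0.05 and -0.05). Against untreated WT, BIN2 (-0.30) and BES1 (-0.24) were called lower, and the list had 2 rises and 2 falls. Of the 10 genes of that list, 3 rose and 0 fell, against 16.7% and 19.4% of all loci. All 3 are homologues of BZR1. BEH2 (AT4G36780) was at 84.7 and 85.3 CPM in bri1-116 and 52.0 and 53.6 CPM in mock-treated Col-0, with no overlap (log2 fold change 0.69, SE 0.0530, adjusted p = 5.51e-08). BEH3 rose as well (log2 fold change 0.52, adjusted p = 0.000202), and BEH1 passed in the full comparison but not without any one of 3 libraries. Of 14 tested bHLH factors that steer cell elongation, 2 rose and 3 fell, against 16.7% and 19.4% of all loci. KDR (0.60) and BS1 (0.40), both small PRE-type proteins, were the rises, and the growth promoters HBI1 (-1.01) and BEE2 (-0.96) and the inhibitor AIF1 (-0.78) were the falls, as log2 fold changes. Levels of HBI1 were low, at 0.535 and 0.884 CPM in bri1-116 and 1.26 and 1.60 CPM in mock-treated Col-0, and its call was lost without the first mutant or the second mock library. KDR did not pass without the second mock library.

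Wall genes changed in both directions, beside 16.7% of all loci higher and 19.4% lower. Of 27 tested XTH genes, whose enzymes cut and rejoin xyloglucan, 7 rose and 12 fell (median log2 fold change -0.19). XTH24 (AT4G30270) fell to 36.5 and 37.0 CPM in bri1-116, against 150.2 and 125 CPM in mock-treated Col-0 (log2 fold change -1.90, SE 0.0799, adjusted p = 1.36e-10). XTH4 was at 88.3 and 92.2 CPM in bri1-116 and 201 and 201 CPM in mock-treated Col-0 (log2 fold change -1.15, adjusted p = 4.33e-09). XTH17 fell by a similar amount (-1.07), whereas XTH26 rose to 29.5 and 32.4 CPM in bri1-116, against 11.8 and 10.6 CPM in mock-treated Col-0 (log2 fold change 1.47, adjusted p = 5.41e-09). None of these groups overlapped. XTH20 also rose (log2 fold change 1.03), but did not pass against untreated WT (0.35).

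Expansins, which loosen walls, rose in 13 of 22 tested genes and fell in 4, with a median log2 fold change of 0.26. EXPA3 (AT2G37640) was at 9.86 and 11.3 CPM in bri1-116 and 1.52 and 1.77 CPM in mock-treated Col-0, a 6.40-fold rise (log2 fold change 2.68, SE 0.161, adjusted p = 4.42e-09). EXPA12 (log2 fold change 2.28) and EXPA17 (1.93) followed in size. EXLA2, an expansin-like gene, was at 3.06 and 3.15 CPM in bri1-116 and 9.73 and 9.92 CPM in mock-treated Col-0 (log2 fold change -1.66, adjusted p = 2.59e-08). Against untreated WT 12 members rose and 2 fell. EXO and EXL2, of the EXORDIUM family of growth-related wall proteins, fell (log2 fold changes -0.93 and -1.04). The family of 6 had 1 rise (2 without the first mock library, 0 without the second) and 3 falls. EXL2 stood at 171 and 186 CPM in bri1-116 and 368 and 365 CPM in mock-treated Col-0. In primary wall cellulose synthesis 5 of 10 genes fell and 0 rose, among them the chitinase-like POM1 (-0.49) and the endoglucanase KOR1 (-0.37). That count was 3 without the second mutant library and 2 without the second mock library.

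Genes of maturing inner tissues fell together, and the counts in this paragraph stand beside 16.7% of all loci higher and 19.4% lower. Of 13 xylem and secondary wall genes, 11 fell and 0 rose (median log2 fold change -0.86). XCP2 (AT1G20850), a protease of dying tracheary elements, was at 79.8 and 76.8 CPM in bri1-116 and 165 and 159 CPM in mock-treated Col-0 (log2 fold change -1.05, SE 0.0589, adjusted p = 2.36e-09). CESA7, a cellulose synthase of secondary walls, was at 26.4 and 28.1 CPM in bri1-116 and 47.5 and 56.7 CPM in mock-treated Col-0 (log2 fold change -0.94, adjusted p = 4.52e-07). The laccase LAC17 (-0.97), which polymerises lignin, fell by a similar amount, and VND7 and MYB83 were the members that did not pass. Of 14 monolignol genes, for the building blocks of lignin, 4 rose (2 without the second mutant library) and 2 fell (1 without any one of the other 3 libraries).

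Suberin is the waxy barrier of the mature endodermis, and all 11 of its synthesis genes fell (median log2 fold change -0.87). CYP86A1 (AT5G58860), a fatty acid hydroxylase, was at 77.4 and 76.6 CPM in bri1-116 and 213 and 188 CPM in mock-treated Col-0 (log2 fold change -1.38, SE 0.0798, adjusted p = 3.27e-09). CYP86B1, which acts on very long chains, was at 23.8 and 21.7 CPM in bri1-116 and 54.9 and 58.4 CPM in mock-treated Col-0 (log2 fold change -1.32, adjusted p = 5.24e-10). FAR5, a fatty acyl reductase, fell too (-1.24). Of 9 genes of the Casparian strip, the lignin ring of the endodermis, 7 fell and 0 rose. CASP1 (AT2G36100), one of the scaffold proteins of that ring, was at 121 and 124 CPM in bri1-116 and 249 and 269.6 CPM in mock-treated Col-0 (log2 fold change -1.08, SE 0.0840, adjusted p = 5.7e-08). CASP2 (-1.03) was close to it, and did not pass against untreated WT (-0.22). For all these genes, both mutant libraries were below both Col-0 libraries.

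The xylem and suberin counts were as large against untreated WT, with 13 of 13 and 11 of 11 members lower. The Casparian strip count was smaller there, with 4 lower and 2 higher of 9. Endodermis markers summed to 252 and 257 CPM in bri1-116 and 467 and 507 CPM in mock-treated Col-0, and xylem markers to 266 and 263 CPM in bri1-116 and 491 and 509 CPM in mock-treated Col-0. The xylem markers are all members of the xylem list, and the endodermis markers include CASP1 and CASP2, so these sums are not separate evidence. The share of each cell type in the sections was not measured.

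**Figure D3:**
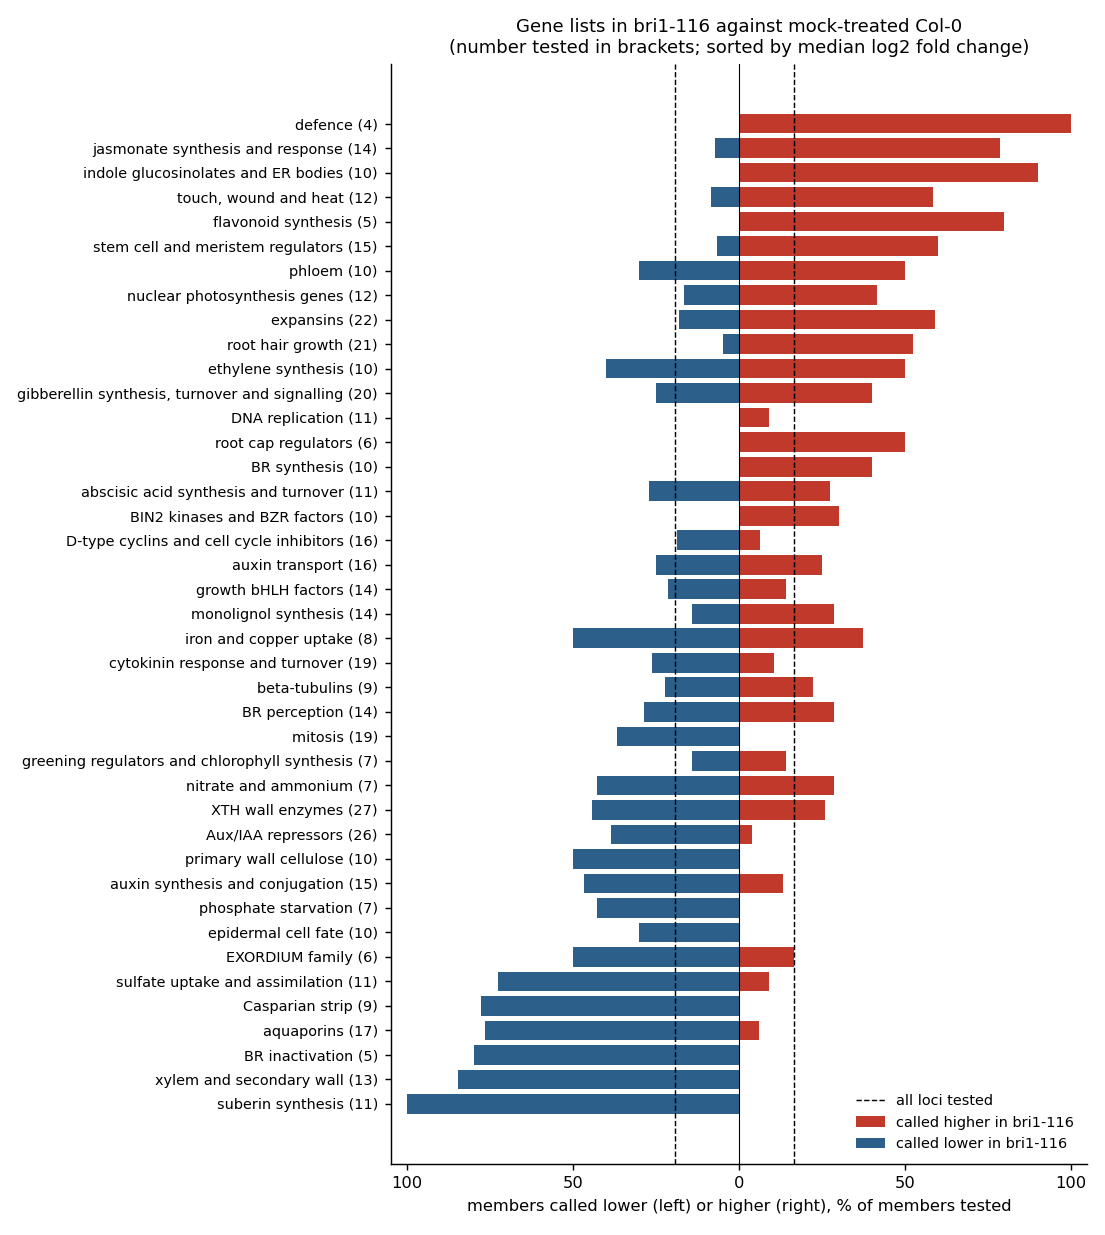
For each gene list with at least 4 members tested, the bars give the percentage of members called lower (left, blue) and higher (right, red) in bri1-116, and the dashed lines the same for all loci tested (19.4% and 16.7%). Suberin, xylem and Casparian strip genes fell in most members, and defence, indole glucosinolate and jasmonate genes rose in most.

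Phloem genes divided. SUC2 (AT1G22710), the sucrose loader of companion cells, was at 16.7 and 16.2 CPM in bri1-116 and 38.2 and 36.4 CPM in mock-treated Col-0 (log2 fold change -1.18, SE 0.0860, adjusted p = 3.06e-08). NAC045 (1.35) and NAC086 (0.94), which drive the breakdown of the nucleus in young sieve elements, and the callose synthase CALS7 (0.75) rose. Of the 10 phloem genes, 5 rose and 3 fell, against 16.7% and 19.4% of all loci.

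Regulators of the stem cell niche and meristem mostly rose, in 9 of 15 genes with 1 lower (median log2 fold change 0.35). PLT3 (AT5G10510), a PLETHORA factor that maintains the meristem, was at 80.5 and 86.0 CPM in bri1-116 and 49.2 and 49.6 CPM in mock-treated Col-0 (log2 fold change 0.75, SE 0.0703, adjusted p = 4.2e-07). BRAVO (AT5G17800), a repressor of divisions in the quiescent centre that brassinosteroid signalling holds down, was at 23.1 and 27.9 CPM in bri1-116 and 12.5 and 11.3 CPM in mock-treated Col-0 (log2 fold change 1.103, adjusted p = 7.24e-07). AGL42 (AT5G62165), a quiescent-centre marker, was the 1 member that fell, to 4.32 and 4.59 CPM in bri1-116, against 17.1 and 18.2 CPM in mock-treated Col-0 (log2 fold change -1.98, adjusted p = 5.21e-09). The groups did not overlap for any of these genes, and against untreated WT 8 rose and 1 fell.

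Division genes moved little. The counts that follow stand beside 16.7% of all loci higher and 19.4% lower. Of 19 mitotic genes 7 fell and 0 rose, with the cyclin CYCB1;4 (-0.45), the kinases AUR1 (-0.31) and CDKB2;1 (-0.31) falling most on the log2 scale. The falls numbered 4 without either mock library, and AUR1 lost its call without the second. Of 11 DNA replication genes 1 rose (2 without the second mock library, 3 with DESeq2's size factors) and 0 fell. Of 16 D-type cyclins and cell cycle inhibitors 1 rose (2 without the first library of either group) and 3 fell (1 without the first mutant or either mock library). Of 9 beta-tubulin genes 2 rose (0 without either mutant or the first mock library) and 2 fell (1 without the second mutant or either mock library). Of 6 regulators of the root cap 3 rose (1 without the first mutant library) and 0 fell.

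Root hair genes rose in 11 of 21 members and fell in 1. PRP1 (AT1G54970), a proline-rich wall protein of hairs, was at 173 and 192 CPM in bri1-116 and 98.1 and 87.5 CPM in mock-treated Col-0 (log2 fold change 0.98, SE 0.0662, adjusted p = 1.41e-08). RHS19 (0.70) and RHS13 (0.57), both named for root hair specific expression, rose as well, and the receptor-like kinase MRH1 fell (-0.51). The 6 root hair markers summed to 618 and 639 CPM in bri1-116 and 499 and 510 CPM in mock-treated Col-0. Among 10 genes of epidermal cell fate 3 fell and 0 rose, led by the receptor-like kinase SUB (-0.88), and the falls numbered 1 without the second library of either group.

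Auxin genes leaned lower outside the transporters, and the counts here stand beside 16.7% of all loci higher and 19.4% lower. Of 26 tested Aux/IAA genes, which encode repressors that auxin itself induces, 10 fell and 1 rose, a rise lost without the second library of either group. SHY2 (AT1G04240), the repressor that limits root meristem size, was at 8.90 and 7.60 CPM in bri1-116 and 19.1 and 18.04 CPM in mock-treated Col-0 (log2 fold change -1.17, SE 0.101, adjusted p = 1.71e-07). IAA19 fell by less (-0.56) and did not pass against untreated WT (log2 fold change -0.06). Of 15 genes for auxin synthesis and conjugation, 7 fell and 2 rose (1 without the second mock library). TAR2 (AT4G24670), an aminotransferase of auxin synthesis, was at 3.63 and 4.91 CPM in bri1-116 and 13.3 and 9.85 CPM in mock-treated Col-0 (log2 fold change -1.42, adjusted p = 1.02e-05). The flavin monooxygenase gene YUC3 (-1.27) and the conjugating enzyme gene GH3.17 (-0.98) fell, and YUC8 rose (0.67). Auxin transporters divided evenly, with 4 higher and 4 lower of 16. PIN2, the carrier of the epidermis and cortex, rose a little (0.37), while PIN5, a carrier of the endoplasmic reticulum, fell to 0.611 and 1.096 CPM in bri1-116, against 4.30 and 4.42 CPM in mock-treated Col-0 (log2 fold change -2.33, adjusted p = 5.81e-07). The influx carrier gene LAX1 fell (-0.997). PIN6 had 40 counts in bri1-116 and 3 in mock-treated Col-0, a ratio of 13.0 after scaling (95% interval 4.14 to 65.8, counting error only).

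In abscisic acid metabolism 3 of 11 genes rose and 3 fell. This and the other hormone counts here stand beside 16.7% of all loci higher and 19.4% lower. CYP707A3 (AT5G45340), a hydroxylase that breaks the hormone down, was at 13.0 and 12.5 CPM in bri1-116 and 4.42 and 4.32 CPM in mock-treated Col-0 (log2 fold change 1.55, SE 0.120, adjusted p = 5.46e-08). CYP707A1 rose too (1.199), and the synthesis enzyme gene NCED9 fell (-2.11). In the gibberellin list 8 of 20 rose and 5 fell. Inactivating GA 2-oxidases lay on both sides, with GA2OX2 higher (1.47) and GA2OX1 (-3.11), GA2OX8 (-2.50) and GA2OX6 (-0.96) lower. Of 10 ethylene synthesis genes 5 rose and 4 fell, among them ACO1 (0.99), an oxidase of the last step, which rose, and ACS5, a synthase for its substrate, which fell to 0.879 and 0.848 CPM in bri1-116, against 3.67 and 5.57 CPM in mock-treated Col-0 (log2 fold change -2.43, adjusted p = 6.82e-07). The ethylene rises numbered 3 without the first library of either group and 1 against untreated WT. Of 19 cytokinin genes 2 rose, the response regulator ARR3 (0.91) and the oxidase CKX1 (1.30), and 5 fell (3 without the second mutant library, 2 against untreated WT).

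Jasmonate genes gave the largest list median among those with more than 5 genes tested, 1.06 on the log2 scale, with 11 of 14 genes higher and 1 lower. VSP2 (AT5G24770), a storage protein induced by jasmonate, was at 17.3 and 15.8 CPM in bri1-116 and 0.632 and 0.578 CPM in mock-treated Col-0, a 27.2-fold rise (log2 fold change 4.76, SE 0.210, adjusted p = 2.24e-10). JAZ10 (AT5G13220), a repressor that jasmonate induces, was at 24.2 and 29.5 CPM in bri1-116 and 1.98 and 2.38 CPM in mock-treated Col-0 (log2 fold change 3.61, SE 0.161, adjusted p = 2.41e-10). The mutant libraries stood far above those of Col-0 for both. The 1 fall was lost without the first library of either group, and against untreated WT 7 genes rose and 2 fell.

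Of 8 defence genes listed, 4 passed the low-count filter and all of these 4 rose. CYP71A12 (AT2G30750), which makes indole defence compounds, was at 42.3 and 29.6 CPM in bri1-116 and 4.72 and 3.47 CPM in mock-treated Col-0 (log2 fold change 3.15, adjusted p = 3.2e-08). The kinase gene FRK1 (1.55) and the transcription factor gene WRKY53 (0.91) rose as well, and 2 of the 4, WRKY53 not among them, passed against untreated WT. In the list of indole glucosinolates and ER bodies 9 of 10 rose. CYP79B2 (AT4G39950), which converts tryptophan at the pathway's entry, was at 420.2 and 465 CPM in bri1-116 and 195 and 193 CPM in mock-treated Col-0 (log2 fold change 1.19, SE 0.0910, adjusted p = 5e-08). CYP83B1 was next in the pathway (0.85). Against untreated WT 4 of the 10 rose and 2 fell, CYP79B2 kept a smaller rise (0.40) and CYP83B1 did not pass (0.00).

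Touch, wound and heat genes, which handling can induce, rose in 7 of 12 members and fell in 1. The falls numbered 2 without the first mutant or the second mock library and 0 without the second mutant or the first mock library. WRKY40 was at 12.5 and 12.4 CPM in bri1-116 and 2.23 and 3.06 CPM in mock-treated Col-0 (log2 fold change 2.21, adjusted p = 1.21e-07). ZAT10 was at 35.5 and 19.3 CPM in bri1-116 and 8.43 and 6.63 CPM in mock-treated Col-0 (log2 fold change 1.87, adjusted p = 0.000292), and the calmodulin-like TCH3 rose (1.06). Against untreated WT 4 rose and 2 fell (3 and 2 against mock-treated Col-0 in a fit of all 18 libraries), and neither WRKY40 (0.64) nor ZAT10 (0.12) passed. The part of handling in the jasmonate and defence rises was not tested. In the double mutant, untreated like bri1-116, VSP2 was at 1.46 and 2.43 CPM, against 17.3 and 15.8 CPM in bri1-116 (log2 fold change -3.11, adjusted p = 9.35e-09). CYP79B2 was at 234 and 255 CPM in the double mutant, against 420.2 and 465 CPM in bri1-116 (log2 fold change -0.86, adjusted p = 1.74e-06).

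Flavonoid genes depended on which wild type was used. Of 5 tested, 4 rose against mock-treated Col-0 (2 without the first mock library), and against untreated WT 0 rose and 5 of 6 fell. TT7 (AT5G07990), the flavonoid 3′-hydroxylase, was at 22.3 and 21.5 CPM in bri1-116, against 9.78 and 10.8 CPM in mock-treated Col-0 and 31.4 and 25.7 CPM in untreated WT. The mutant thus lay between the wild types, with log2 fold changes of 1.08 and -0.39. TT4, the chalcone synthase, showed the same order (0.63 and -0.36).

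Aquaporins, the water channels, were lower in 13 of 17 genes and higher in 1. TIP2;1 (AT3G16240), of the vacuole membrane, was at 124 and 123 CPM in bri1-116 and 265 and 296 CPM in mock-treated Col-0 (log2 fold change -1.19, SE 0.0630, adjusted p = 1.32e-09). PIP1;5 (-1.08) and PIP1;3 (-0.85), of the plasma membrane, fell too, and PIP1;3 did not pass against untreated WT (-0.13). PIP2;5 (AT3G54820) was the exception, at 16.05 and 19.8 CPM in bri1-116 and 3.83 and 2.51 CPM in mock-treated Col-0 (log2 fold change 2.52, adjusted p = 1.03e-08). Against untreated WT the aquaporin counts turned round, with 10 higher and 3 lower, while TIP2;1 (-0.29), PIP1;5 (-0.63) and PIP2;5 (3.28) kept their directions. Reads that aligned to more than 1 place made up 3.602% and 4.45% in bri1-116, 3.32% and 3.14% in mock-treated Col-0 and 8.45% and 8.18% in WT, and their part in this reversal was not tested.

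Uptake genes for minerals changed in several pathways, and their counts stand beside 16.7% of all loci higher and 19.4% lower. IRT1 (AT4G19690), the iron transporter of the epidermis, was at 41.8 and 44.8 CPM in bri1-116 and 143 and 121 CPM in mock-treated Col-0 (log2 fold change -1.61, SE 0.201, adjusted p = 9.54e-06). The iron reductase gene FRO2 (-1.56) and the copper transporter gene COPT2 (-1.66) fell as well, and BHLH39, a regulator of iron uptake (1.118), and the nicotianamine synthase gene NAS4 (1.33) rose. In all, 3 of 8 iron and copper genes rose and 4 fell. Sulfate genes fell in 8 of 11 members and rose in 1, with LSU1, induced by sulfur shortage (-1.08), lower and the transporter gene SULTR2;1 (0.76) higher. NRT2.1 (AT1G08090), the high-affinity nitrate transporter, was at 1.11 and 1.80 CPM in bri1-116 and 0.126 and 0.136 CPM in mock-treated Col-0 (log2 fold change 3.42, adjusted p = 1.72e-05). NRT1.1 (-0.45) and the ammonium transporter gene AMT1;3 (-0.58) fell. In all, 2 of 7 tested nitrate and ammonium genes rose and 3 fell. Of 7 phosphate starvation genes 3 fell, among them SQD2 (-0.96), of sulfolipid synthesis, and the exporter gene PHO1 (-0.56), and 0 rose. LSU1, COPT2 and AMT1;3 did not pass against untreated WT.

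Of 12 tested nuclear photosynthesis genes 5 rose and 2 fell, against 16.7% and 19.4% of all loci. RBCS1A (1.34), for the small subunit of Rubisco, LHCA2 (1.098) and CAB1 (0.87), for light-harvesting proteins, rose most. CAB1 and RBCS1A have near-identical copies, so their values are uncertain. Of 7 tested genes of greening and chlorophyll synthesis 1 rose (0 without the second mutant or either mock library) and 1 fell. For the photosynthesis genes, against untreated WT 11 rose and 0 fell, and the falls numbered 1 without the first mutant or the second mock library and 0 without either of the other libraries.

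By size alone, the 12 largest rises among loci with a symbol and a mean of at least 2 CPM were led by JRG21 (AT3G55970), a jasmonate-regulated oxygenase gene. It had 231 counts in bri1-116 and 3 in mock-treated Col-0, a ratio of 75.1 after scaling (95% interval 25.4 to 367, counting error only). Next was scpl30, a serine carboxypeptidase-like gene, with 7.14 and 12.1 CPM in bri1-116 and 0 and 0.340 CPM in mock-treated Col-0. DIN11, a dark-inducible oxygenase-like gene, BGLU24 and BGLU18, which encode beta-glucosidases, and VSP2 followed, with log2 fold changes of 5.22, 4.86, 3.68 and 4.76. TAT3, a tyrosine aminotransferase gene induced by jasmonate, had 13.7 and 10.1 CPM in bri1-116 and 0.716 and 0.985 CPM in mock-treated Col-0 (log2 fold change 3.77, adjusted p = 3.32e-09). The others were GSTU12 (3.69), for a glutathione transferase, the peroxidase gene PRX52 (3.65), JAZ10, the dirigent protein gene DIR5 (3.45) and GAD4 (3.35), for glutamate decarboxylase.

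The 12 largest falls were taken under the same limits, a symbol and a mean of at least 2 CPM, so some larger falls given above are not among them. They were led by HAK5 (AT4G13420), the high-affinity potassium transporter, at 4.62 and 5.87 CPM in bri1-116 and 39.5 and 20.01 CPM in mock-treated Col-0 (log2 fold change -2.48, SE 0.253, adjusted p = 1.13e-06). ACS5 and PIN5, given above, came next. CYP82C4, which acts on coumarins under iron shortage, was at 6.42 and 5.83 CPM in bri1-116 and 36.5 and 25.3 CPM in mock-treated Col-0 (log2 fold change -2.32). The rest had log2 fold changes between -2.25 and -1.99: LPAT3 (an acyltransferase), PERK4 (a receptor-like kinase), ATPMEPCRD (a pectin methylesterase), PRF4 (a profilin), SP1L5 (a SPIRAL1-like protein), TPX2 (AT1G65970, a thioredoxin-dependent peroxidase), SDI1 (induced by sulfur shortage) and CPT (a prenyltransferase). TPX2, which has near-identical copies, stood at 21.6 and 22.2 CPM in bri1-116, against 101 and 90.2 CPM in mock-treated Col-0 and 12.1 and 12.3 CPM in untreated WT at 36 bp, so its direction turned with the wild type used. PRF4 turned as well (log2 fold change 0.11 against untreated WT, not passed).

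**Figure D4:**
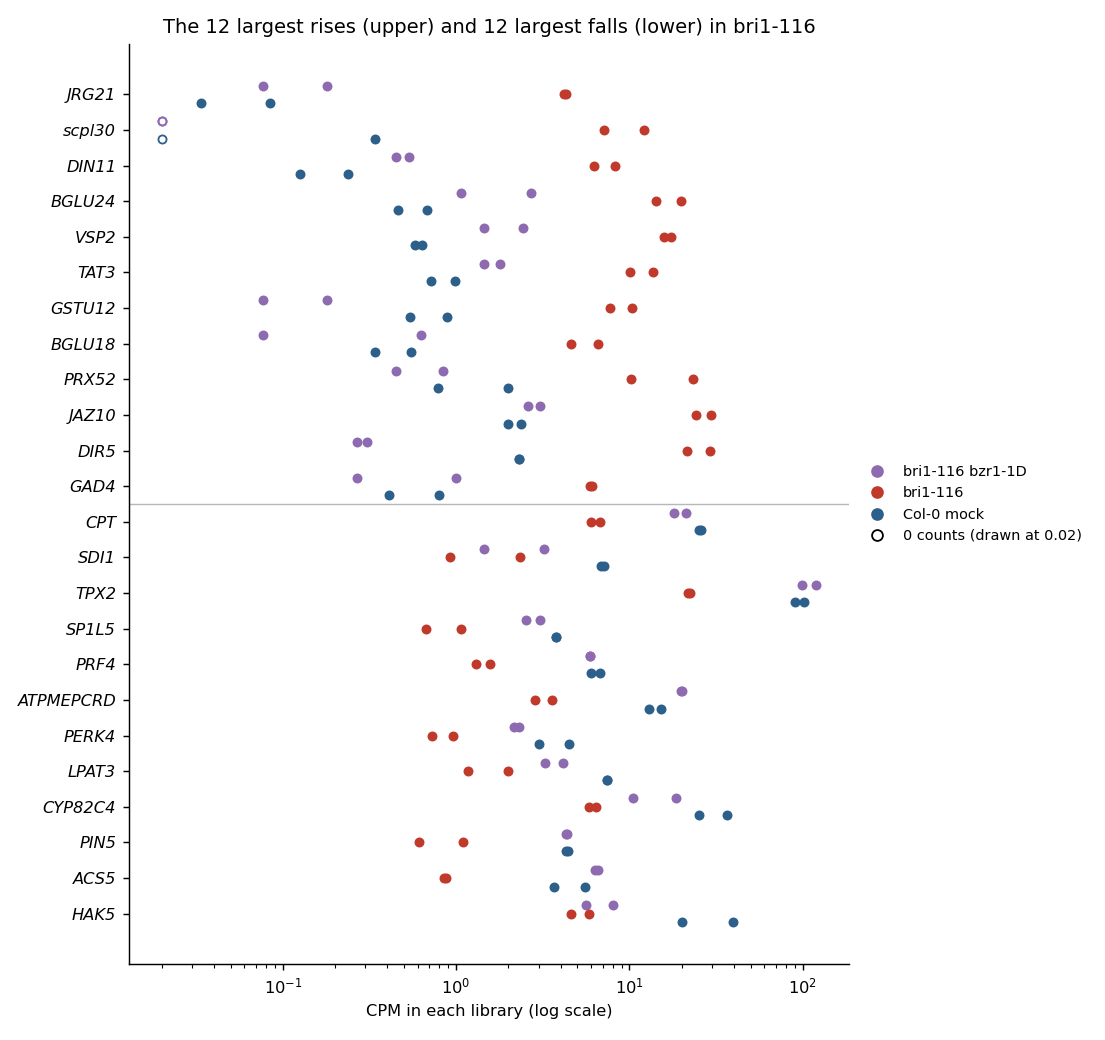
CPM in each library, on a log scale, of the 12 largest rises (upper) and 12 largest falls (lower), with the double mutant, bri1-116 and mock-treated Col-0 from top to bottom within each gene. Both sets were taken among loci with a symbol and a mean of at least 2 CPM. Open circles mark 0 counts. For the rises, the double mutant lies with or below Col-0 or between the groups, and for HAK5 it lies near bri1-116.

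The double mutant was set beside these loci, since bzr1-1D keeps BZR1 active without the receptor; both genotypes were untreated, and the bri1-116 libraries are shared with the main comparison. Against bri1-116, 8316 loci were called (40.3%), 4367 higher (21.2%) and 3949 lower (19.1%). BR6OX2 fell to 27.4 and 25.1 CPM in the double mutant, against 75.2 and 73.7 CPM in bri1-116 (log2 fold change -1.50, adjusted p = 5.81e-09). DWF4 was at 33.9 and 30.7 CPM in the double mutant, against 54.9 and 58.1 CPM in bri1-116 (log2 fold change -0.80, adjusted p = 9.86e-07). Of the 10 synthesis genes, 4 were lower and 2 higher in the double mutant than in bri1-116, with a median log2 fold change of -0.055. DIR5 fell to 0.306 and 0.270 CPM in the double mutant, against 21.5 and 29.0 CPM in bri1-116 (log2 fold change -6.42, adjusted p = 1.52e-09), and PRX52 fell too (-4.65). JRG21 had 1 and 2 counts in the double mutant, and scpl30 had 0 in both of its libraries. Among the largest falls, ACS5 (2.89), PIN5 (2.33), SP1L5 (1.68) and LPAT3 (1.25) were higher in the double mutant than in bri1-116. HAK5 was not called, at 8.04 and 5.58 CPM in the double mutant and 4.62 and 5.87 CPM in bri1-116 (log2 fold change 0.39, adjusted p = 0.436).

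The hormone-deficient dwf4 mutant was set beside bri1-116 because dwf4 and its WT were both untreated and share no library with the bri1-116 comparison. In dwf4, 2487 of 19558 loci were called (12.7%), 937 higher (4.79%) and 1550 lower (7.93%). Of all loci tested in dwf4, 457 were called with a change over 2-fold (2.34%). The total was 667 without the first WT library and 575 without the second, and scaling by library totals gave 1321 higher and 1209 lower. Over the 19502 loci tested in both, 613 were called higher in both mutants, which is 18.8% of those higher in bri1-116 and 65.7% of those higher in dwf4. Of all loci tested in both, 4.78% were called higher in dwf4 and 16.7% in bri1-116. For falls the shared number was 1144, or 29.0% of the bri1-116 falls and 73.9% of the dwf4 falls, beside 7.94% and 20.21% of all loci tested in both. Loci called in opposite directions numbered 43 and 52. Across those 19502 loci, which are not independent of each other, the log2 fold changes correlated with a Pearson r of 0.572 and a Spearman rho of 0.501.

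BR6OX2 rose in both mutants, with 81.1 and 69.8 CPM in dwf4 and 24.4 and 27.2 CPM in WT (log2 fold change 1.54, SE 0.105, adjusted p = 0.000141, beside 1.52 in bri1-116), and the difference of the effects was -0.01 (adjusted p = 0.979). VSP2 was at 9.66 and 9.96 CPM in dwf4 and 0.481 and 0.324 CPM in WT (log2 fold change 4.60, adjusted p = 0.000379). PLT3 rose by 0.82 on the log2 scale in dwf4 and by 0.75 in bri1-116. XTH26 (1.18), EXPA3 (1.77), CYP707A3 (1.26), BEH2 (0.88) and RHS19 (0.54) rose in dwf4 as well. BAS1 (-0.58), SOB7 (-0.86), CYP86A1 (-1.03), CESA7 (-0.52), EXLA2 (-1.38) and TAR2 (-1.12) fell. Of these, EXPA3, RHS19 and BAS1 lost their call without either WT library. BRI1 rose in dwf4 (log2 fold change 0.31, adjusted p = 0.042), a call lost without the second dwf4 library or either WT library. Over all 224 loci that the naming rule gave, 85 were called in dwf4, of which 45 lost their call without the first WT library and 51 without the second. Jasmonate genes rose in 4 of 14 tested in dwf4 and fell in 0, with a median of 1.05 on the log2 scale, and JAZ10 differed widely between the dwf4 libraries, at 9.73 and 31.7 CPM.

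The difference between the effects of the mutants was tested in a fit of all 18 libraries, where it passed at 1572 of 20393 loci (7.71%). These were 714 positive (3.5%) and 858 negative (4.21%) differences (563 and 1114 with scaling by library totals). The total was 875 without the second bri1-116 library, 927 without the second mock library, and 869 and 917 without the first and the second WT library. The differences in read length and in mock treatment cannot be told apart from it. Of the 224 loci of the naming rule, 218 were tested and 62 passed. CPD rose more in dwf4, with 59.5 and 61.8 CPM in dwf4 and 36.2 and 38.8 CPM in WT (log2 fold change 0.69, difference of bri1-116 minus dwf4 effects -0.46, adjusted p = 0.00945), and the difference did not pass without the second bri1-116, the second mock or the first WT library (adjusted p 0.0507 to 0.0608). DWF4 was not called in dwf4 (-0.08), and its difference passed (0.42, adjusted p = 0.0175), but not without the second bri1-116, the second mock or the second WT library (adjusted p 0.0729 to 0.0816). DWF4 is itself the gene mutated in dwf4, so its level there need not report a response to the lack of hormone. EXPA17 was not called in dwf4, at 6.41 and 2.68 CPM in dwf4 and 5.29 and 6.03 CPM in WT (difference 2.24, adjusted p = 0.000359). XTH24 was at 134 and 228 CPM in dwf4 and 156 and 149.6 CPM in WT, without a call (difference -2.14, adjusted p = 3.84e-05). Without the first dwf4 library, XTH24 was called higher in dwf4 (log2 fold change 0.58, adjusted p = 0.00205) and EXPA17 lower (-1.09, adjusted p = 0.0227). COPT2 fell further in dwf4, to 2.53 and 2.84 CPM, against 24.996 and 23.2 CPM in WT (log2 fold change -3.16, difference 1.51, adjusted p = 0.00107). PRX52 fell in dwf4 (log2 fold change -1.54, adjusted p = 0.0285) where it rose in bri1-116. The fall in dwf4 did not pass without the first dwf4 or either WT library, with DESeq2 or in the fit of all 18 libraries (adjusted p 0.0557 to 0.196), and the difference was the largest among these loci (5.19, adjusted p = 0.000385).

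**Figure D5:**
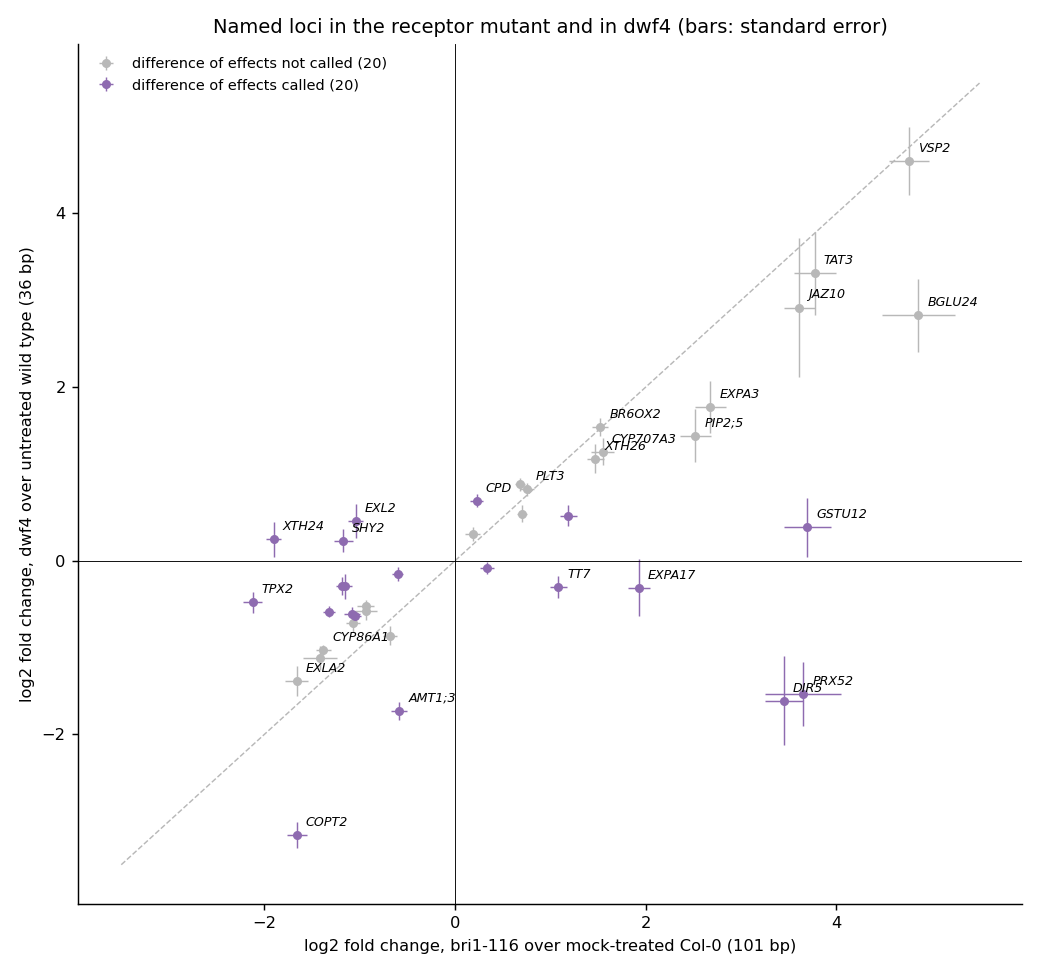
Log2 fold change of bri1-116 over mock-treated Col-0 (horizontal) and of dwf4 over untreated WT (vertical) for 40 named loci, chosen after their values were seen, with standard errors as bars and a dashed line of equal effects. BR6OX2, VSP2 and PLT3 lie near the line, and the 20 purple loci, among them PRX52, DIR5 and EXPA17, passed the test of a difference between the effects.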

How the data were processed

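The members and gene lists were chosen with earlier results of these data known. Per the labels' protocols, total RNA from root tip sections was made into TruSeq libraries, and the authors deposited raw read counts per locus, one file per library. The submitters' processing notes name TopHat 1.4.0, Bowtie, HTSeq and the TAIR10 build, with no strand setting. Each deposited file lists 33602 loci and 5 closing lines of unassigned reads, left out here, which were 5.97% to 7.25% in the 4 libraries. Of the loci, 32835 matched the TAIR10.1 RefSeq annotation and 10654 of them carry a symbol. Promoters were read from that genome by its own coordinates.

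Counts entered edgeR 4.0.16 (R 4.3.3) unchanged. TMM scaling and filterByExpr (at least 10 counts, total at least 15) were applied, each group had its own mean, and the quasi-likelihood test was adjusted over all loci tested, with calls at 0.05. The 12 libraries of 101 bp were fitted together (20644 loci), the 6 of 36 bp apart (19558 loci), and all 18 for the difference of effects and for bri1-116 against untreated WT (20393 loci). The scripts were tested on simulated data in which few loci changed, unlike the real data. There, 8.12% of the calls were false for bri1-116 and 4.49% for the double mutant. The false share was 13.6% for dwf4 and 3.05% for the difference of effects. Of simulated 1.5-fold changes, 80.6%, 71.6%, 50.7% and 37.3% were recovered, in the same order. Total counts were 23684709 to 29482429 in the 4 libraries. Of 568 list entries in 42 lists, 565 matched the annotation. Lists are described by counts and medians, with no test. For bri1-116 against mock-treated Col-0, each count stands beside 16.7% of all loci higher and 19.4% lower.

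The naming rule took BRI1, the 12 largest called rises and falls among loci that have a symbol, average 2 CPM or more and do not overlap, every brassinosteroid list member, and up to 3 called members per direction of each other list. It gave 224 loci, and the text gives values for 136. The other 88 were left out, 1 of them because it is not reported here and the rest after their values were seen, in part because their calls or signs changed under the alternatives, so the loci shown are steadier than the rule's full set, whose stability is given in the closing section. Alternatives were DESeq2's size factors, library totals, no filter, the DESeq2 1.42.0 test, a replicate block, leaving out each library, fitting the 4 or all 18 libraries, and untreated WT as the control.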

Additional observations from a re-analysis of the deposited data

Results flagged for a closer look

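For 20 of the 40 loci plotted for both mutants, the effect of bri1-116 differed from that of dwf4 in edgeR's test of the difference over all 18 libraries. Over all 224 loci of the naming rule it was 62 of the 218 tested, and over all loci 1572 of 20393 (7.71%). The rule favoured large changes in bri1-116 and the 40 were chosen after their values were seen. The higher shares are therefore not a result about these genes. The difference, bri1-116 effect minus dwf4 effect on the log2 scale, was positive for PRX52 (5.19), DIR5 (5.07), GSTU12 (3.31), EXPA17 (2.24), COPT2 (1.51), TT7 (1.39), AMT1;3 (1.15), CYP79B2 (0.68) and DWF4 (0.42). COPT2 and AMT1;3 fell in both mutants, by less in bri1-116. It was negative for XTH24 (-2.14), TPX2 (AT1G65970, -1.63), EXL2 (-1.49), SHY2 (-1.40), TIP2;1 (-0.89), XTH4 (-0.85), CYP86B1 (-0.73), CASP1 (-0.47), CPD (-0.46), BRL2 (-0.45) and XCP2 (-0.40). With 1 library left out, 6 to 22 of the 62 calls were lost. Among those named, CASP1 lost its call without any one of 6 libraries (adjusted p 0.0775 to 0.131), CYP79B2 of 5 (0.053 to 0.0817), and CPD (0.0507 to 0.0608) and DWF4 (0.0729 to 0.0816) of 3 each. The control of bri1-116 was mock-treated and read at 101 bp and that of dwf4 untreated and read at 36 bp, so genotype, treatment and read length cannot be told apart here. For DWF4, the gene mutated in dwf4, the mutation itself may also alter the level in dwf4. In the separately scaled tables, TPX2 stood at 101 and 90.2 CPM in mock-treated Col-0 and 12.1 and 12.3 CPM in WT.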

How the results depend on the processing

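Total counts for bri1-116 against mock-treated Col-0 stayed within 1.5 times of the reported ones under the alternatives run. They ran from 5255 (DESeq2) to 8791 (untreated WT) loci called, and fewer than reported were called with 1 library left out. The replicate block gave 7163. Counts for single gene lists were less stable. Against untreated WT, 34 list counts moved by more than 1.5 times and 50 did not. With DESeq2, 9 moved and 75 did not, and more moved with any 1 library left out. Neither the labels nor the counts show that replicate numbers pair the samples: same-numbered libraries correlated at -0.158 to 0.150 in their deviations from group means, at 101 bp and at 36 bp. The block gave 2095 for dwf4. Of the 192 called among the 224 loci of the naming rule, 20 to 29 calls were lost with 1 library left out, 24 with DESeq2, and against untreated WT 51 were lost and 19 signs turned. Among the 88 loci not shown in the text, 61 were called and 14 to 25 of these calls were lost with 1 library left out, against 2 to 7 of 131 among the 136 shown. For the double mutant, loci higher numbered 2837 to 3555 with 1 library left out. In dwf4 the ranges were 575 to 2359 loci, 167 to 1003 higher, 408 to 1356 lower and 190 to 568 over 2-fold; DESeq2 gave 1617, 593 higher and 1024 lower, and a fit of all 18 libraries gave 3781 and 1542 higher. For the difference of effects they were 869 to 1826 loci, 358 to 795 positive and 485 to 1031 negative, and with no low-count filter 2524, 1097 and 1427. Against untreated WT the log2 fold change turned for BIA1 (0.12), BZR1 (-0.0881), CYP90D1 (-0.79), PRF4 (0.11), TPX2 (0.83), TT4 (-0.36) and TT7 (-0.39). With 1 library left out, the dwf4 changes of EXPA17 (-1.09 to 0.17) and XTH24 (-0.18 to 0.58), which were called without the first dwf4 library only, and the uncalled differences of effects of BR6OX2 (-0.12 to 0.10), BRI1 (-0.23 to 0.0119), PLT3 (-0.14 to 0.0149) and VSP2 (-0.12 to 0.44) turned; BR6OX2 gave 0.0012, 0.0393 and 0.0627 without the second bri1-116, the second mock and the first WT library. The cause was not tested. With 2 libraries per group small changes are the least certain, and read length, mock handling and genotype cannot be separated in comparisons with the 36 bp libraries.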
